A study of Mus musculus with 8 samples.

Results

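Cell cycle genes are genes whose transcripts are made mainly by dividing cells, and 38 of them, 13 of S phase and 25 of mitosis, were followed in whole lung of mice. A gene was read from its brightest Affymetrix probe with exactly 1 gene symbol, by the mean over the 8 arrays. Of the 38 listed genes 37 had such a probe, among 19937 genes in all, and Ccnb1 was not analysed here. A filter on level, a mean at or above log2 5.93, left 33 of them among 14953 genes tested: all 13 S phase genes and 20 of the 25 mitosis genes. The 4 groups were lungs of mice given mepenzolate and taken at 25 h, vehicle and 25 h, mepenzolate and 7 h, and vehicle and 7 h, with 2 arrays each. Mepenzolate blocks muscarinic acetylcholine receptors, and per the labels' protocol it was given in PBS into the trachea under chloral hydrate at 500 mg/kg. The study asked how the drug lowers inflammation and oxidative stress in the lung. The labels used here state no strain, age or drug dose, nor whether the 2 arrays of a group stand for different mice. P-values therefore rest on the spread between these arrays, part of which may be technical. Levels are log2 RMA values and differences are log2 units with a moderated standard error from limma.

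A cell that divides first licenses its replication origins, copies its DNA in S phase and then separates the copies in mitosis. Genes of S phase, such as the MCM helicase and the enzymes that make deoxynucleotides, are driven by E2F factors, which bind GC-rich sites near the start of transcription. Genes of mitosis peak later and are kept silent in resting cells by the DREAM complex through a short element called CHR, often with CCAAT boxes upstream that bind NF-Y, and are turned on by B-MYB and FOXM1. Adult lung divides little, so that these transcripts come from a small share of its cells, such as endothelium, alveolar epithelium, macrophages and lymphocytes. In whole tissue, fewer cells of a type and less RNA per cell cannot be told apart.

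Promoters of the members carried the elements that mark these phases. RefSeq promoters of GRCm38.p6, running from 250 bases before to 50 bases after a gene's start, were at hand for 32 of the 38 genes. CHR was searched as TTTGAA or TTCGAA, the CCAAT box as CCAAT, and E2F as the word TTGGCGC, the word TTCCCGC, the word TTCGCGC or the word TTGCCGC, on both strands. TTCGAA reads the same on both strands, and TTGGCGC on one strand can overlap TTCGCGC on the other. CHR was found in 16 of 20 mitosis genes (80.0%), in 2 of 12 S phase genes (16.7%) and in 21.7% of all 27025 genes with a promoter. E2F was found in 4 of 20 mitosis genes (20.0%), in 8 of 12 S phase genes (66.7%) and in 10.9% of all genes. CCAAT was found in 18 of 20 mitosis genes (90.0%), in 9 of 12 S phase genes (75.0%) and in 41.1% of all genes. CHR and CCAAT stood together in 16 of 20 mitosis genes, 2 of 12 S phase genes and 9.7% of all genes. The 2 S phase genes with both were Mcm2 and Mcm7. The median GC content was 58.8% in mitosis promoters, 57.5% in S phase promoters and 52.7% in all promoters. A match is a description of letters and not a shown binding site.

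The 6 mitosis promoters printed here belong to genes whose levels are described below, and in them CHR and CCAAT matches are in capitals. Each runs 5′ to 3′ on the gene's strand, from 150 bases before to 50 bases after the start. They are Mki67 at chr7:135716330-135716529 (minus strand), Kif23 at chr9:61946750-61946949 (minus strand), Top2a at chr11:99024140-99024339 (minus strand), Ube2c at chr2:164769779-164769978 (plus strand), Ccnb2 at chr9:70421505-70421704 (minus strand) and Plk1 at chr7:122159285-122159484 (plus strand).
Mki67: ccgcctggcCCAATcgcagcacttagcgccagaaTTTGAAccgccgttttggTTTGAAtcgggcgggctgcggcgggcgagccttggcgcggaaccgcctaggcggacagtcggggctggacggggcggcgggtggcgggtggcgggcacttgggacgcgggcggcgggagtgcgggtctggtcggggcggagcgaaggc
Kif23: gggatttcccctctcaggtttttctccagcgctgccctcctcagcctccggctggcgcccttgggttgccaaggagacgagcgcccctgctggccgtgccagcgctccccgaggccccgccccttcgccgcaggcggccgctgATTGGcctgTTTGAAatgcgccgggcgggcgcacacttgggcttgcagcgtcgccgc
Top2a: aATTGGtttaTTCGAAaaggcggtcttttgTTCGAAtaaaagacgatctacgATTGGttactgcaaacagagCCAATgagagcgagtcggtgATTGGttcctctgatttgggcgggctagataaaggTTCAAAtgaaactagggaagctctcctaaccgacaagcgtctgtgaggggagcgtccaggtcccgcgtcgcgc
Ube2c: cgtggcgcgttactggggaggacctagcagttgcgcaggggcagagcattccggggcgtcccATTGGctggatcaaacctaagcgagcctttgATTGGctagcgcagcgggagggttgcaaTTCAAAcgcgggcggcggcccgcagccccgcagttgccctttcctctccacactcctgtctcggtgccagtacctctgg
Ccnb2: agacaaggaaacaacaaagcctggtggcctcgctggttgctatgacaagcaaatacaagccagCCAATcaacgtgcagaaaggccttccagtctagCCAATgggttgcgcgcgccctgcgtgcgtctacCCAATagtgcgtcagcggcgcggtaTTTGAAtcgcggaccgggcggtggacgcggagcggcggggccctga
Plk1: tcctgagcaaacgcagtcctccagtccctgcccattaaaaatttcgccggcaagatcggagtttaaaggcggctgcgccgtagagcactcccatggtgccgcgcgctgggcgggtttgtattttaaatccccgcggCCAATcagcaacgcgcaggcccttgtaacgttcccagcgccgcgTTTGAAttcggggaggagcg
In Kif23, Ccnb2 and Plk1 a CHR match began 3, 5 and 31 bases after the start. In Kif23 a CCAAT box on the other strand began 7 bases before the start. In Mki67 both CHR matches lay before the start, at 116 and 98 bases. Top2a held 2 copies of TTCGAA and 1 of TTTGAA in the printed stretch.

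The 3 S phase promoters shown for contrast have their E2F matches in capitals. They are Mcm6 at chr1:128359656-128359855 (minus strand), the upstream of 2 listed starts of Mcm7 at chr5:138171834-138172033 (minus strand) and Cdc6 at chr11:98908001-98908200 (plus strand).
Mcm6: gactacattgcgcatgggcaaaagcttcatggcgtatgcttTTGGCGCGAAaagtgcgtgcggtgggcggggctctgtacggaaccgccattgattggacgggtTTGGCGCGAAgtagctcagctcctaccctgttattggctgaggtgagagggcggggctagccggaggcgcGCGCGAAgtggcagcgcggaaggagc
Mcm7: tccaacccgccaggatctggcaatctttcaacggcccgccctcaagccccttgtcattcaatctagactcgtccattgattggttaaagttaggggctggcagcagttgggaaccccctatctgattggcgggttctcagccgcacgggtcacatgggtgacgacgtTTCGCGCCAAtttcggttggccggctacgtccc
Cdc6: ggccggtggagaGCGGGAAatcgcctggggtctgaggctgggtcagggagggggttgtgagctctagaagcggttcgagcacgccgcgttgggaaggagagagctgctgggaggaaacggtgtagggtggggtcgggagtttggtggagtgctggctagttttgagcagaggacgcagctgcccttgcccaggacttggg
In Mcm6 overlapping E2F words formed 2 runs before the start, and 1 more word lay after it. In Mcm7 a pair of overlapping words lay after the start. Cdc6, which loads the MCM helicase onto origins, had 1 word, 138 bases before the start.

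**Figure D1:**
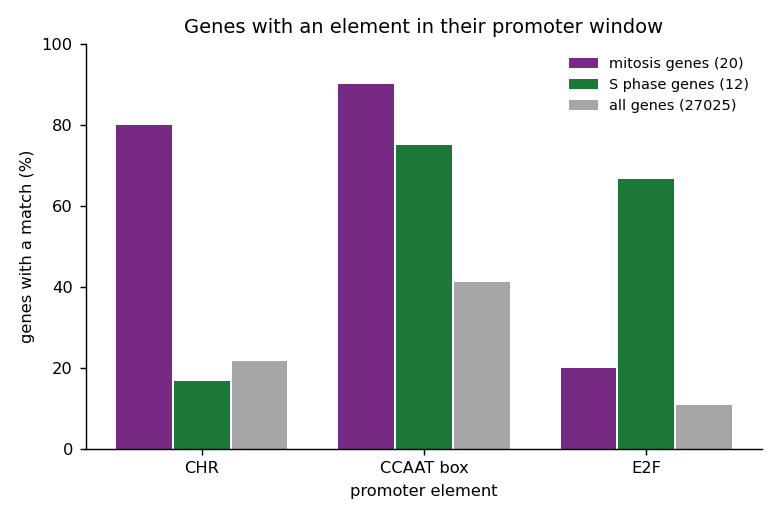
Share of genes (vertical axis, percent, from 0) with a CHR, CCAAT box or E2F match in the promoter window, for mitosis genes, S phase genes and all genes with a RefSeq promoter. CHR marks 80.0% of mitosis genes against 16.7% of S phase genes, and E2F 20.0% of mitosis genes against 66.7% of S phase genes.

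The arrays were alike, with r = 0.988 to 0.993 across probes both between the 2 arrays of a group and between arrays of different groups. The 2 arrays of a group were thus no more alike than arrays of different groups. Probes are not independent replicates. All 7 lung epithelial markers were bright, with Sftpc, the surfactant protein of alveolar type II cells, reaching 13.56. The second mepenzolate array at 7 h stood apart: its mean deviation over 6 liver genes was 0.81, against -0.15 on its partner and -0.22 to -0.04 on the other 6 arrays. Over 7 club cell genes it was -0.61, against -0.02 on its partner and -0.08 to 0.36 on the others. For the members tested, counts by direction or overlap, medians and values of the leading genes in comparisons that use this array are also given without it. Values of the further gene lists and of the cell markers are given only with it.

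Mitosis genes ordered the 4 groups more widely than S phase genes. The mitosis score of an array, the mean over the 24 matched genes of each gene's level minus its own mean over the 8 arrays, was 0.01 and 0.07 in mepenzolate lungs at 25 h and 0.24 and 0.07 in vehicle lungs at 25 h. It was 0.03 and -0.08 in mepenzolate lungs at 7 h and -0.22 and -0.12 in vehicle lungs at 7 h. Both vehicle arrays at 7 h were the lowest of the 8, and the first vehicle array at 25 h was the highest. The vehicle groups thus stood at the 2 ends, with a group mean of 0.15 ± 0.12 at 25 h and -0.17 ± 0.07 at 7 h (SD, n = 2 each), and both mepenzolate groups lay between, at 0.04 ± 0.04 at 25 h and -0.03 ± 0.08 at 7 h. The S phase score over 13 genes was -0.03 and 0.03 in mepenzolate lungs at 25 h, 0.10 and 0.01 in vehicle lungs at 25 h, 0.02 and -0.02 in mepenzolate lungs at 7 h, and -0.05 and -0.06 in vehicle lungs at 7 h. Its 2 lowest arrays were again the vehicle arrays at 7 h, but its whole range was smaller. The mitosis score minus the S phase score was 0.04 to 0.14 on the 4 arrays at 25 h and -0.17 to 0.01 on the 4 arrays at 7 h, so the times did not overlap. These scores are descriptions and carry no test.

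**Figure D2:**
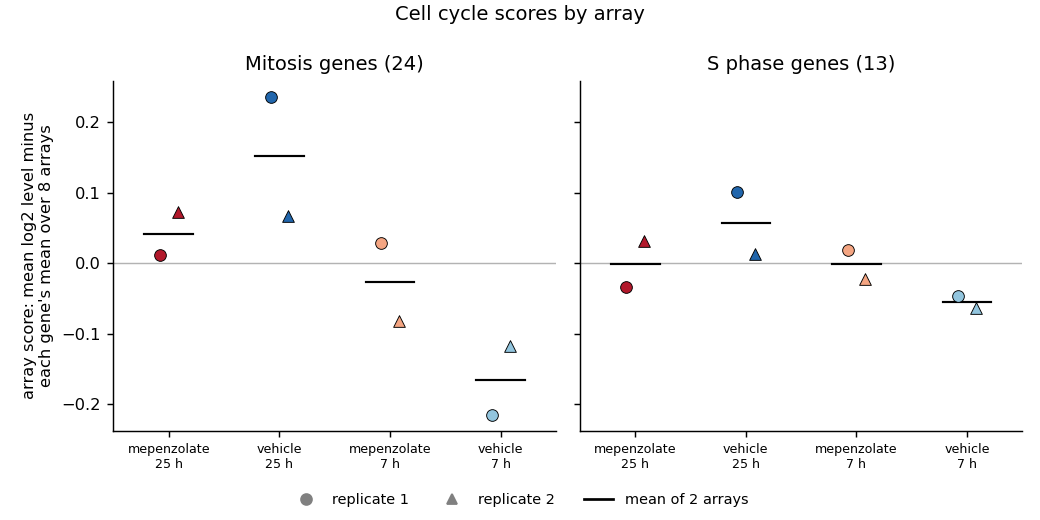
Mitosis score (left) and S phase score (right) of each array, in log2 units, by treatment and time. Circles and triangles are the 2 arrays of a group and lines their mean. Vehicle lungs have the highest mean at 25 h and the lowest at 7 h in both panels, and the mitosis scores span -0.22 to 0.24.

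Within vehicle lungs, mitosis genes stood higher at 25 h than at 7 h without exception among those measured. All 24 matched genes were above 0, and among the 20 tested the median difference was 0.32 (0.05 to 0.55), against 0.00 over all genes tested, of which 49.9% were above 0. No member passed limma at an adjusted p under 0.05, a mark reached by 13 genes in all (0.0869%). At an unadjusted p under 0.05, 14 of 20 mitosis genes and 3 of 13 S phase genes were higher and none was lower, against 2.71% of all genes. Members and lists were chosen with earlier results of these data known. Shares of members beside those of all genes, here and below, are therefore descriptions and no independent test. The 25 h and 7 h arrays did not overlap for 19 of the 20 mitosis genes and 8 of the 13 S phase genes, against 20.9% of all genes. Without the first vehicle array at 25 h all 20 mitosis genes remained above 0 with a median of 0.23, but fewer members reached an unadjusted p under 0.05. Fewer also did without the first vehicle array at 7 h. The share of all genes at that p was not computed for fits with 1 array left out. B cell markers stood higher at 25 h than at 7 h in vehicle lungs for 7 of 7 genes, with a median of 0.43, and their mean deviation was -0.16 and 0.55 at 25 h, against -0.05 and -0.39 at 7 h, so the times overlapped. T cell markers were above 0 for 5 of 7 genes, endothelial markers for 6 of 12 and alveolar macrophage markers for 4 of 8. The part of these cells in the values of the cell cycle genes was not tested.

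Mki67, the chromosome surface protein used as a proliferation mark (Ki-67), read 7.66 and 7.54 in vehicle lungs at 25 h, against 6.96 and 7.13 in vehicle lungs at 7 h. Both arrays at 25 h were above both at 7 h, by 0.55 ± 0.09 or 1.47-fold. It had the smallest p among the members (limma, unadjusted p = 0.000353, adjusted p = 0.149). Kif23, the kinesin of the central spindle that cytokinesis needs, read 7.45 and 7.03 in vehicle lungs at 25 h, against 6.70 and 6.69 at 7 h. The arrays at 7 h lay close together and the first array at 25 h stood far above its partner, so the difference of 0.55 ± 0.13 was 0.34 without that array. Top2a, the topoisomerase that untangles sister chromatids, read 6.95 and 6.78 in vehicle lungs at 25 h, against 6.43 and 6.44 at 7 h (0.43 ± 0.10, limma adjusted p = 0.391). The times did not overlap for Top2a.

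Cyclins and their kinase followed the same order. Cdk1, the kinase that starts mitosis, differed by 0.41 ± 0.12 between 25 h and 7 h in vehicle lungs, Ccnb2, its B-type cyclin partner, by 0.36 ± 0.10, Ccna2, the cyclin of S and G2 phase, by 0.35 ± 0.16, and Foxm1, a transcription factor of mitosis genes, by 0.21 ± 0.08. Over the 8 arrays Cdk1 lay between 7.02 and 7.60, Ccnb2 between 6.98 and 7.52, and Ccna2 between 6.77 and 7.34. All 4 of these genes had both arrays at 25 h above both at 7 h. Of the anaphase promoting complex partners, Ube2c, the E2 enzyme that starts ubiquitin chains on mitotic cyclins, read 7.40 and 7.19 in vehicle lungs at 25 h, against 6.86 and 7.01 at 7 h (0.36 ± 0.10). Cdc20, the activator of that complex, differed by 0.24 ± 0.13 and lay between 6.49 and 6.97 over the 8 arrays.

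Mitotic kinases and the passenger complex were closer to their spread. Plk1, the polo-like kinase of spindle assembly, read 7.35 and 7.20 in vehicle lungs at 25 h, against 6.85 and 7.04 at 7 h (0.33 ± 0.13). Aurka, the kinase of spindle poles, differed by 0.30 ± 0.12, and Aurkb, the kinase of the passenger complex, by 0.27 ± 0.11. Its partners Birc5 (survivin) and Cdca8 (borealin) differed by 0.22 ± 0.14 and 0.05 ± 0.10, and Cdca8 was the 1 mitosis gene tested whose arrays overlapped between the times. Aurka lay between 6.40 and 6.85 over the 8 arrays, Aurkb between 7.26 and 7.71, Birc5 between 5.90 and 6.44, and Cdca8 between 5.84 and 6.05.

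Kinesins and cytokinesis genes stood higher as well. Ect2, which activates the small GTPase RhoA at the cleavage furrow, differed by 0.43 ± 0.15 in vehicle lungs, Kif11, the kinesin that pushes spindle poles apart, by 0.31 ± 0.11, and Nusap1, a microtubule bundler of the spindle, by 0.24 ± 0.12. Kif20a, a kinesin of late mitosis, read 6.29 and 6.09 in vehicle lungs at 25 h, against 5.76 and 5.99 at 7 h (0.32 ± 0.11). Tpx2, which seeds spindle microtubules and activates Aurora A, differed by 0.12 ± 0.14, within its error. The ranges over the 8 arrays were 6.54 to 7.21 for Ect2, 6.11 to 6.55 for Kif11, 6.18 to 6.51 for Nusap1 and 6.02 to 6.47 for Tpx2. Of the kinetochore and checkpoint genes Bub1b, the checkpoint kinase-like protein BubR1, was tested, at 0.33 ± 0.10, and it lay between 6.07 and 6.58. The 4 members under the filter on level gave 0.36 ± 0.18 for Bub1, the checkpoint kinase, 0.29 ± 0.08 for Cenpe, the kinetochore motor, 0.27 ± 0.12 for Cenpf, a large kinetochore protein, and 0.34 ± 0.12 for Prc1, which bundles midzone microtubules. Their levels lay between 5.42 and 6.22, 5.05 and 5.40, 5.29 and 5.78, and 5.42 and 5.86, and they have no adjusted p.

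**Figure D3:**
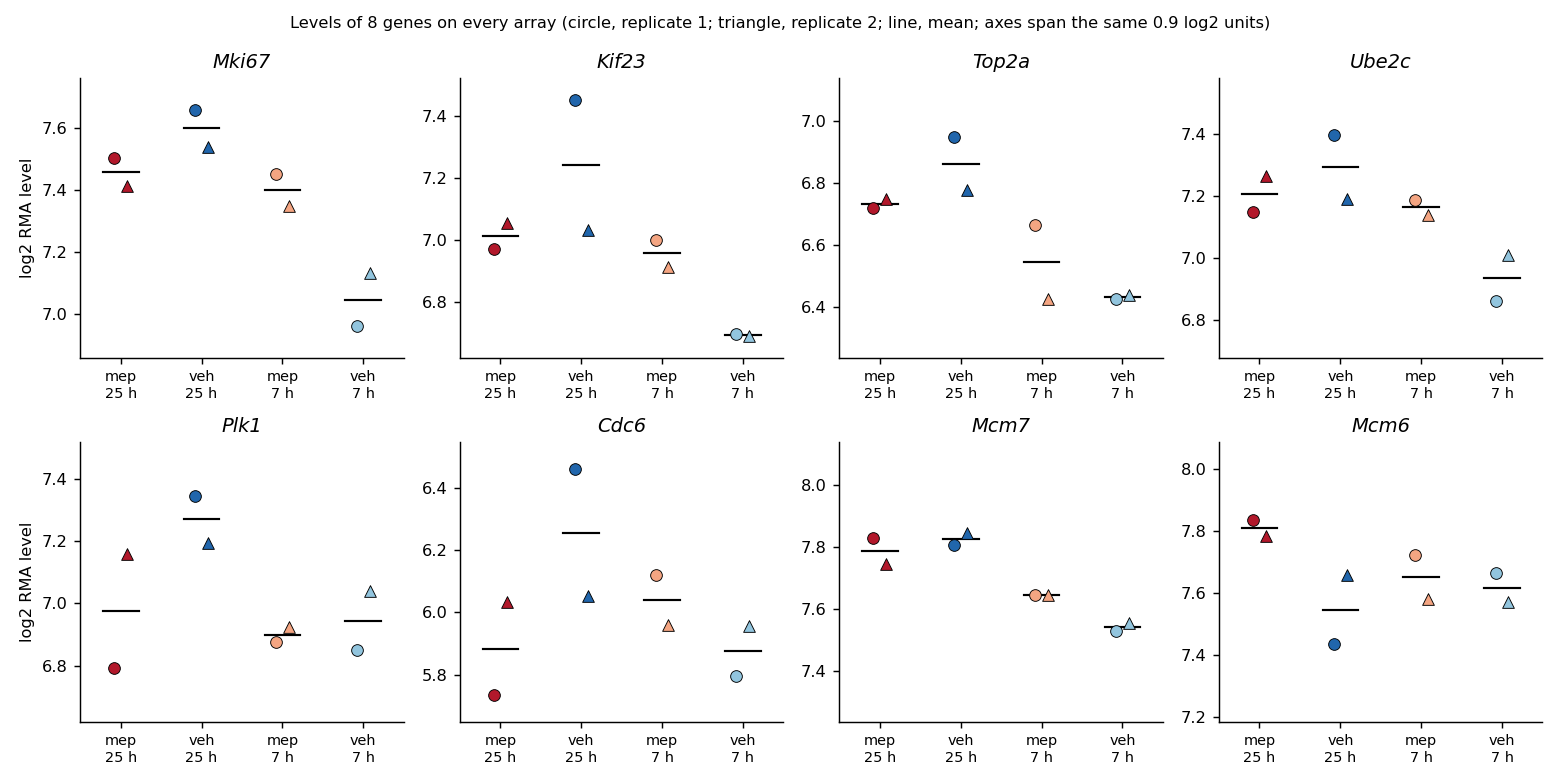
Levels of 8 members on each array (vertical axes, log2 RMA, each spanning 0.9 units), with mepenzolate (mep) left of vehicle (veh) at each time. Circles are first and triangles second arrays, lines are means. Mki67, Kif23, Ube2c and Mcm7 have both vehicle arrays at 7 h below the other 6 arrays. Both mepenzolate arrays of Mcm6 at 25 h lie above both vehicle arrays.

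S phase genes were less even over the same times in vehicle lungs. Of 13 genes, 9 were above 0 with a median of 0.12 (-0.09 to 0.38). Cdc6 read 6.46 and 6.05 in vehicle lungs at 25 h, against 5.80 and 5.96 at 7 h (0.38 ± 0.16), and the first array at 25 h stood far above the rest. Uhrf1, which keeps DNA methylation through replication, differed by 0.30 ± 0.17 and lay between 5.95 and 6.76 over the 8 arrays, with the same array highest. Pcna, the sliding clamp of the polymerases, differed by 0.07 ± 0.10 and lay between 10.49 and 10.74.

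The 6 MCM genes encode the ring-shaped helicase that unwinds DNA, and they did not share a direction. Mcm7 read 7.81 and 7.84 in vehicle lungs at 25 h, against 7.53 and 7.55 at 7 h (0.28 ± 0.07, limma adjusted p = 0.466). The 2 arrays of each time lay close together and the times lay apart. Mcm5 differed by 0.19 ± 0.08, while Mcm2 (0.03 ± 0.08), Mcm4 (-0.01 ± 0.09), Mcm3 (-0.06 ± 0.12) and Mcm6 (-0.07 ± 0.10) were within their error, and the median of the 6 was 0.01. Mcm3 lay between 6.89 and 7.29 over the 8 arrays, Mcm4 between 8.08 and 8.29, and Mcm5 between 7.34 and 7.64. Among the genes of deoxynucleotide supply, Rrm1 and Rrm2, the subunits of ribonucleotide reductase, differed by 0.17 ± 0.10 and 0.12 ± 0.09. Tk1, thymidine kinase, differed by 0.16 ± 0.12 and Tyms, thymidylate synthase, by -0.09 ± 0.10. Rrm2 lay between 6.70 and 6.91, Tk1 between 7.21 and 7.54, and Tyms between 7.23 and 7.49.

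A further probe with the same single symbol was on the array for Tk1, Pcna and Top2a, and the probes disagreed. The dimmer Tk1 probe read 6.06 and 5.94 in mepenzolate lungs at 25 h, 6.30 and 6.46 in vehicle lungs at 25 h, 5.59 and 6.15 in mepenzolate lungs at 7 h, and 5.42 and 5.68 in vehicle lungs at 7 h. Its difference between 25 h and 7 h in vehicle lungs was 0.84 ± 0.18 (limma, unadjusted p = 0.00142, adjusted p = 0.31), larger than on the probe used here. The other Pcna probe gave -0.14 ± 0.11, and the other Top2a probe, which lay between 2.71 and 3.17 and far under the filter, gave -0.19 ± 0.12. In the treatment comparisons at 25 h the other probe gave 0.25 ± 0.12 for Top2a and 0.26 ± 0.11 for Pcna, against -0.13 and 0.015 on the probes used here. For the difference of the mepenzolate effect between the times, the other Tk1 probe gave -0.70 ± 0.25 (limma, unadjusted p = 0.0225), against -0.145 on the probe used here. Which transcripts each probe reads was not tested, and the levels alone do not tell near-identical copies of Pcna or Tk1 from them. Probe numbers of the other members run in order of chromosome. By that order the Tk1 probe used here stands between genes of chr8 and chr9. The dimmer Tk1 probe stands between genes of chr11, where Tk1 lies, and chr12. The dimmer Pcna probe stands between genes of chr18 and chr19, and Pcna lies on chr2. The S phase counts, score and medians here use the brighter Tk1 probe.

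In mepenzolate lungs the same 25 h and 7 h times lay closer together. Of the 20 mitosis genes tested 15 were above 0 with a median of 0.07 (-0.07 to 0.19), and 17 of all 24 matched. Of 13 S phase genes 8 were above 0 with a median of 0.02 (-0.16 to 0.16), against 47.9% of all genes. No member passed limma at an adjusted p under 0.05, as 4 genes in all did (0.0268%), and 0 of 33 reached an unadjusted p under 0.05, against 6.37% of all genes. The times did not overlap for 6 members that were higher, against 12.5% of all genes, and 3 that were lower, against 15.2%. Without the second mepenzolate array at 7 h, the mitosis median was 0.03 and 14 of 20 were above 0. The S phase median was then -0.02 and 5 of 13 were above 0, against 42.9% of all genes. The remaining arrays then did not overlap for 9 members that were higher and 11 that were lower, against 27.8% and 39.7% of all genes. Without the second mepenzolate array at 25 h the mitosis median was 0.01. That median was 0.15 without the first mepenzolate array at 7 h and 0.10 without the first at 25 h. Some members reached an unadjusted p under 0.05 in these fits.

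Among members above the filter on level, Mcm7 had the smallest p in mepenzolate lungs, reading 7.83 and 7.74 at 25 h, against 7.64 and 7.64 at 7 h (0.14 ± 0.07, limma adjusted p = 0.859), and was 0.14 without the second array at 7 h. Top2a read 6.72 and 6.75 in mepenzolate lungs at 25 h, against 6.66 and 6.43 at 7 h (0.19 ± 0.10), and was 0.07 without the second array at 7 h. The times did not overlap for Mcm7 or Top2a. Mcm6 read 7.84 and 7.79 in mepenzolate lungs at 25 h, against 7.72 and 7.58 at 7 h (0.16 ± 0.10), and was 0.09 without the second array at 7 h. Mcm2 stood the other way, at 7.63 and 7.62 in mepenzolate lungs at 25 h, against 7.80 and 7.69 at 7 h (-0.13 ± 0.08). Mcm2 was -0.18 without the second array at 7 h and -0.07 without the first. Mki67 read 7.50 and 7.41 in mepenzolate lungs at 25 h, against 7.45 and 7.35 at 7 h, so its times overlapped (0.06 ± 0.09). Kif23 differed by 0.06 ± 0.13 and Ube2c by 0.04 ± 0.10, and without the second array at 7 h they differed by 0.01 and 0.02. Of the members under the filter, Bub1 read 6.22 and 5.69 in mepenzolate lungs at 25 h, against 5.62 and 5.49 at 7 h (0.40 ± 0.18, limma, unadjusted p = 0.0506). The times did not overlap for Bub1, but its first array at 25 h stood far above the other, and without it the difference was 0.13. Cenpe differed by 0.13 ± 0.08, Cenpf by -0.08 ± 0.12 and Prc1 by -0.19 ± 0.12 in mepenzolate lungs, and without the second array at 7 h Prc1 was at -0.37. B cell markers (median 0.63) and T cell markers (median 0.37) stood higher at 25 h than at 7 h in mepenzolate lungs for 7 of 7 genes each, and their part was not tested.

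**Figure D4:**
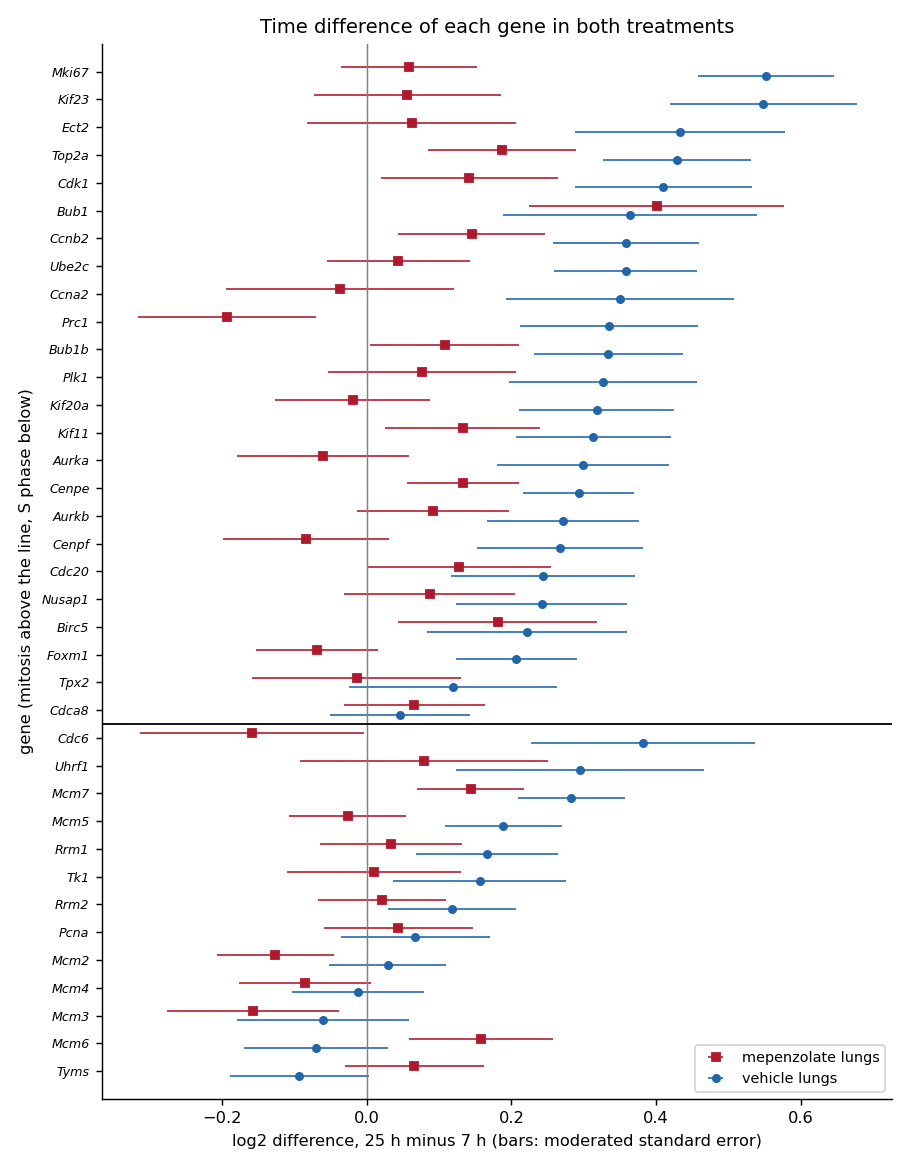
Log2 difference of 25 h minus 7 h for each of 37 genes, in mepenzolate lungs (squares, upper of each pair) and vehicle lungs (circles), with moderated standard errors. Mitosis genes lie above the line and S phase genes below it. All 24 mitosis genes are right of 0 in vehicle lungs, and 17 of them in mepenzolate lungs. Bub1, Cenpe, Cenpf and Prc1 were under the filter on level.

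At 7 h, mitosis genes stood slightly above those of vehicle lungs in lungs given mepenzolate. Of the 20 tested 19 were above 0 with a median of 0.12 (-0.05 to 0.35), and of the 13 S phase genes 11 with a median of 0.04 (-0.10 to 0.19). Over all genes tested the median was -0.01 and 43.6% were above 0. No member and no other gene passed limma at an adjusted p under 0.05 (0%). An unadjusted p under 0.05 was reached by 2 of the 33 tested members, both higher, against 0.742% of all genes. The groups did not overlap for 12 of 33 members, all higher, against 8.26% of all genes that were higher and 15.5% that were lower. Without the second mepenzolate array the mitosis median was 0.22 and 18 of 20 were above 0, against 51.5% of all genes. Of the S phase genes 10 of 13 were then above 0, with a median of 0.10, and the arrays left did not overlap for 25 members that were higher and 3 that were lower, against 36.2% and 32.9% of all genes. Without the first mepenzolate array the medians were 0.06 for mitosis genes and -0.04 for S phase genes. Of the latter 6 were then above 0, against 38.7% of all genes. The members at an unadjusted p under 0.05 no longer reached it without the first vehicle array.

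Mki67 read 7.45 and 7.35 in mepenzolate lungs at 7 h, against 6.96 and 7.13 in vehicle lungs at 7 h, with no overlap (0.35 ± 0.09, limma, unadjusted p = 0.00542, adjusted p = 1). Ube2c read 7.19 and 7.14 in mepenzolate lungs, against 6.86 and 7.01 in vehicle lungs (0.23 ± 0.10, limma, unadjusted p = 0.0498). Kif23 read 7.00 and 6.91 in mepenzolate lungs, against 6.70 and 6.69 in vehicle lungs (0.26 ± 0.13). For these 3 mitosis genes both vehicle arrays lay under both mepenzolate arrays, and without the second mepenzolate array the differences were 0.41 for Mki67, 0.25 for Ube2c and 0.30 for Kif23. Rrm1 was the leading S phase gene, with 9.13 and 9.05 in mepenzolate lungs, against 8.88 and 8.93 in vehicle lungs (0.19 ± 0.10), or 0.23 without the second mepenzolate array. Of the 4 members under the filter, Cenpe differed by 0.19 ± 0.08, Cenpf by 0.26 ± 0.12, Prc1 by 0.20 ± 0.12 and Bub1 by -0.03 ± 0.18 at 7 h. They differed by 0.19, 0.25, 0.38 and 0.04 in that order without the second mepenzolate array.

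At 25 h the order of the treatments was turned, for mitosis genes mainly through 1 array. Of the 20 mitosis genes tested 18 were below 0 with a median of -0.13 (-0.30 to 0.06), and of the 13 S phase genes 9 with a median of -0.05 (-0.37 to 0.26). Over all genes tested the median was -0.02 and 58.7% were below 0. Again 0% of genes passed limma at an adjusted p under 0.05, and 1 of the 33 tested members in each direction reached an unadjusted p under 0.05, against 1.54% of all genes higher and 2.47% lower. The arrays did not overlap for 13 members that were lower, against 22.4% of all genes, and for 2 that were higher, against 14.2%. The first vehicle array weighed on this comparison: without it the mitosis median was -0.03, and 11 of 20 were below 0. Of all genes 41.7% were then above 0, so the mitosis genes stood near the share of all genes. The members at an unadjusted p under 0.05 no longer reached it without that array or without the first mepenzolate array. More members reached it without the second vehicle array.

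Cdc6 read 5.73 and 6.03 in mepenzolate lungs at 25 h, against 6.46 and 6.05 in vehicle lungs at 25 h (-0.37 ± 0.16, limma, unadjusted p = 0.0419, adjusted p = 0.979). The groups did not overlap for Cdc6, but the second arrays were close, and without the first vehicle array the difference was -0.17. Plk1 read 6.79 and 7.16 in mepenzolate lungs, against 7.35 and 7.20 in vehicle lungs (-0.30 ± 0.13), and was -0.11 without the first mepenzolate array. Kif20a read 5.92 and 6.03 in mepenzolate lungs, against 6.29 and 6.09 in vehicle lungs (-0.21 ± 0.11), and was -0.11 without the first vehicle array. Mcm6 was the exception among the helicase genes, with 7.84 and 7.79 in mepenzolate lungs, against 7.44 and 7.66 in vehicle lungs (0.26 ± 0.10, limma, unadjusted p = 0.0296). Without the first vehicle array Mcm6 was at 0.15. Its other 5 partners lay between -0.14 and -0.04. Tyms, at 0.13 ± 0.10, was the other tested gene with both mepenzolate arrays above both vehicle arrays. Under the filter, Prc1 read 5.42 and 5.53 in mepenzolate lungs at 25 h, against 5.86 and 5.74 in vehicle lungs at 25 h (-0.33 ± 0.12, limma, unadjusted p = 0.0281), with no overlap. Cenpf differed by -0.09 ± 0.12, Cenpe by 0.03 ± 0.08 and Bub1 by 0.01 ± 0.18.

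Markers of other cells that divide in lung stood on both sides at 25 h. Endothelial markers were lower in mepenzolate lungs for 10 of 12 genes, against 58.7% of all genes, with a median of -0.09. Of these markers 3 were lower at an unadjusted p under 0.05, against 2.47% of all genes. The mean deviation of endothelial markers was -0.09 and -0.04 in mepenzolate lungs, against 0.02 and 0.07 in vehicle lungs. Alveolar macrophage markers were lower for 6 of 8 genes, and their mean deviation was -0.05 and -0.04 in mepenzolate lungs, against 0.05 and 0.08 in vehicle lungs. The median was below 0 for both lists, as for the mitosis genes and for all genes (-0.02). Car4 was counted in both lists. At 7 h, where 43.6% of all genes were above 0, endothelial markers were lower in mepenzolate lungs for 5 of 12 genes. Alveolar macrophage markers were lower there for 7 of 8 genes, T cell markers for 5 of 7 and B cell markers for 6 of 7. Over the 7 matched T cell markers the mean deviation was 0.20 and 0.24 in mepenzolate lungs at 25 h, against -0.03 and -0.02 in vehicle lungs at 25 h, and 6 of the 7 genes stood higher with a median of 0.19. Over 7 B cell markers it was 0.21 and 0.44 in mepenzolate lungs, against -0.16 and 0.55 in vehicle lungs, so the groups overlapped. Of the precursor lists, erythroid genes lay at -0.07 and 0.07 in mepenzolate lungs at 25 h, against 0.01 and 0.07 in vehicle lungs, and myeloid genes at -0.13 and 0.08, against 0.07 and -0.03. Their part in the values of the cell cycle genes was not tested.

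With all 8 arrays the effect of mepenzolate thus lay on opposite sides of 0 at the 2 times for most members. The difference between the times was itself fitted. It was below 0 for 19 of 20 mitosis genes, with a median of -0.25, and for 11 of 13 S phase genes, with a median of -0.13, against 51.7% of all genes and a median of -0.01. No gene passed limma at an adjusted p under 0.05 (0%). An unadjusted p under 0.05 was reached by 4 of the 33 tested members, all below 0, against 1.26% of all genes. These were Mki67 (-0.49 ± 0.13), Kif23 (-0.49 ± 0.18), Cdc6 (-0.54 ± 0.22) and Foxm1 (-0.28 ± 0.12). Without the first vehicle array at 25 h Kif23 was at -0.28 and Cdc6 at -0.335. The 4 genes were at -0.55, -0.53, -0.62 and -0.26 in that order without the second mepenzolate array at 7 h. Under the filter, Prc1 differed by -0.53 ± 0.17 (limma, unadjusted p = 0.0156), or -0.35 without the first mepenzolate array at 7 h and -0.705 without the second. Kif23 read 6.97 and 7.05 in mepenzolate lungs at 25 h, where the second vehicle array at 25 h lay between them at 7.03. Cdc6 read 6.12 and 5.96 in mepenzolate lungs at 7 h, above both vehicle arrays at 7 h. Foxm1 read 6.27 and 6.30 in mepenzolate lungs at 25 h, 6.53 and 6.37 in vehicle lungs at 25 h, 6.34 and 6.37 in mepenzolate lungs at 7 h, and 6.28 and 6.20 in vehicle lungs at 7 h. The highest single array of Foxm1 was the first of vehicle lungs at 25 h, and the lowest was the second of vehicle lungs at 7 h. The same 4 groups enter this fit and the comparisons above, which are therefore not independent of it or of each other. Without the first vehicle array at 25 h the mitosis median was -0.16, and fewer members reached an unadjusted p under 0.05. Fewer also did without the first array of any of the other groups. More did without the second vehicle array at 25 h or the second mepenzolate array at 7 h. Without the latter the mitosis median was -0.30 with 19 of 20 below 0, and the S phase median -0.17 with 10 of 13 below 0. Of all genes 42.9% were then above 0.

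The vehicle groups held the end positions in both phases, for a larger share of mitosis genes than of S phase genes. Vehicle lungs at 25 h had the highest group mean for 17 of 20 mitosis genes and 7 of 13 S phase genes, against 30.7% of all genes. Vehicle lungs at 7 h had the lowest for 19 of 20 and 7 of 13, against 21% of all genes. Both held for 16 of 20 mitosis genes and 5 of 13 S phase genes, against 9.72% of all genes. Both vehicle arrays at 7 h lay under the other 6 arrays for 7 mitosis genes and 3 S phase genes, against 2.08% of all genes. Without the second mepenzolate array at 7 h, vehicle lungs at 25 h were highest and those at 7 h lowest for 14 of 20 mitosis genes and 4 of 13 S phase genes, against 5.87% of all genes. Both vehicle arrays at 7 h then lay under the other 5 for 12 mitosis genes and 3 S phase genes, against 4.17% of all genes.

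Mitosis genes also moved together between the 2 arrays of a group. The first vehicle array at 25 h was above the second for 19 of 20 mitosis genes, by a median of 0.17, against 48.6% of all genes, and it was the highest of the 8 arrays for 14 of them, against 11.9% of all genes. At 7 h the second vehicle array was above the first for 17 of 20, by a median of 0.14, where 51.2% of all genes had the first above. In mepenzolate lungs the second array was above the first for 16 of 20 at 25 h, where 56.3% of all genes had the first above, and the first above the second for 16 of 20 at 7 h, where 61.8% of all genes also had the first above. A shift of 1 array therefore carries most mitosis genes with it, and counts of genes are not counts of independent observations.

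**Figure D5:**
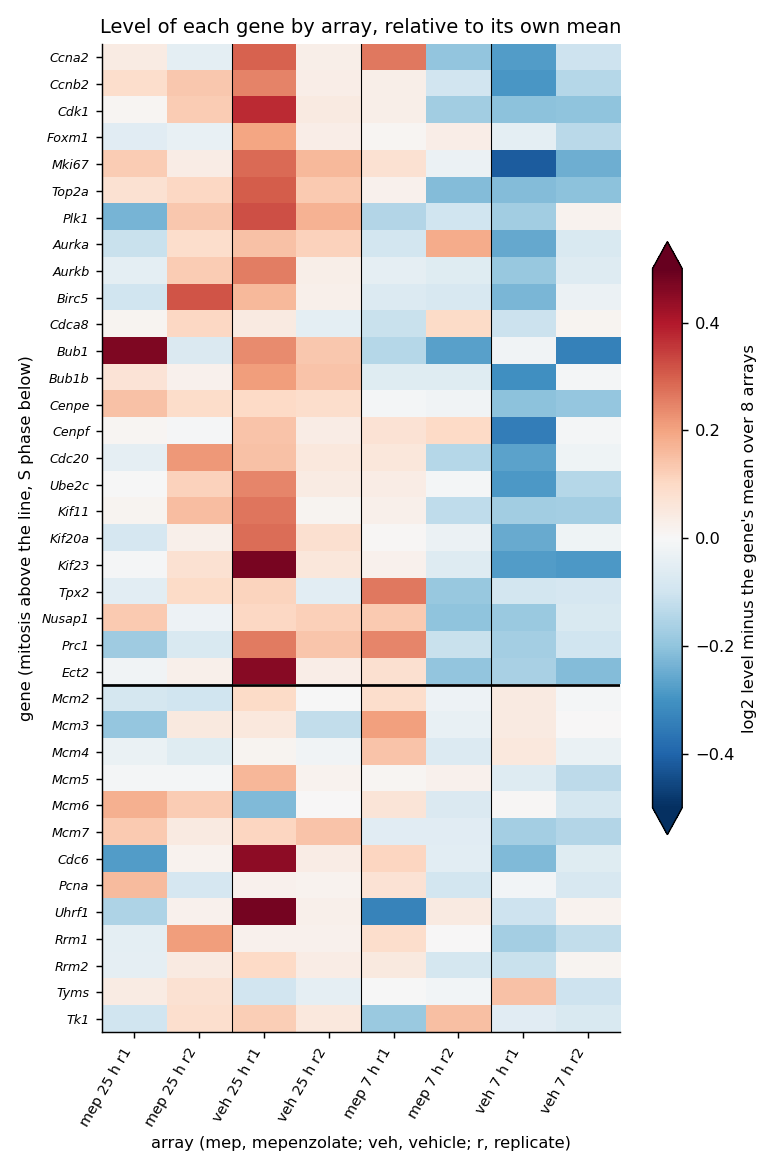
Level of each of 37 genes on each array minus the gene's mean over the 8 arrays (colour, log2 units, red above and blue below), with mitosis genes above the line and S phase genes below. The first vehicle array at 25 h is the reddest column among mitosis genes and the first vehicle array at 7 h the bluest, with scores of 0.24 and -0.22.

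Further genes of the same pathway outside the list gave smaller differences between 25 h and 7 h in vehicle lungs. Of 39 other mitosis genes tested 31 were above 0 with a median of 0.15, against 49.9% of all genes. At an unadjusted p under 0.05, against 405 higher and 454 lower of all 14953 genes, 9 of these 39 were higher and 1 lower. Kif22, a chromosome-bound kinesin (0.34 ± 0.09), Ccnf, cyclin F (0.40 ± 0.12), and Cenpn, a protein of the inner kinetochore (0.32 ± 0.10), led them. In the other comparisons these 39 genes were split more evenly. At 7 h 23 were higher in mepenzolate lungs (median 0.05), against 43.6% of all genes. At 25 h 14 were (median -0.04), where 58.7% of all genes were lower. For the difference of effects 13 were above 0 (median -0.085), where 51.7% of all genes were below 0. In mepenzolate lungs, against 47.9% of all genes, 21 of the 39 were higher at 25 h than at 7 h (median 0.015). At 7 h the gene with the smallest p among them, Hmgb2, a chromatin protein of the HMG box family, was lower in mepenzolate lungs (-0.37 ± 0.09, limma, unadjusted p = 0.0031, adjusted p = 1). Of 32 other replication genes 24 were above 0 with a median of 0.08, 1 at an unadjusted p under 0.05, the histone chaperone Asf1b (0.34 ± 0.11). Chaf1a, the large subunit of chromatin assembly factor CAF-1, at 0.26 ± 0.12, and Gins2, of the GINS complex of the helicase, at 0.19 ± 0.10, came next. G1 cyclins and their kinases stood on the other side, with 1 of 9 above 0 and a median of -0.09, and 0 at an unadjusted p under 0.05. Cdk2 (-0.18 ± 0.08), the cyclin Ccnd3 (-0.17 ± 0.08) and Cdk6 (-0.17 ± 0.12) led them. Of 18 cell cycle inhibitors 7 were above 0, with a median of -0.04. Wee1, the kinase that holds CDK1 inactive, differed by -0.82 ± 0.14 in vehicle lungs (limma, unadjusted p = 0.000457, adjusted p = 0.164) and by -0.54 ± 0.14 in mepenzolate lungs. The INK4 inhibitors Cdkn2d (0.26 ± 0.10, limma, unadjusted p = 0.0282) and Cdkn2b (0.19 ± 0.10) stood the other way in vehicle lungs. For Wee1 the difference between the treatments was 0.28 ± 0.20 (limma, unadjusted p = 0.21). The shares of all genes given for the other mitosis genes in vehicle lungs apply to all 4 lists. None of the genes in these 4 lists passed limma at an adjusted p under 0.05 in any of the 5 comparisons.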

How the data were processed

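The authors deposited log2 levels of 34760 probes on Affymetrix mouse arrays. Per the submitters' processing notes these are RMA values, from a version not given in the sources used here. This method corrects background, brings the arrays to one intensity distribution and sums up each probe set, and it shrinks differences of dim genes. Values lay between 2.00 and 13.98 and array medians between 6.70 and 6.77. Precision is limited by the number of arrays.

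Probes with exactly 1 gene symbol (21640) were used, and each gene was read from its brightest by mean level over the 8 arrays. Genes at or above the 25th percentile of mean level were fitted in limma 3.58.1 (R 4.3.3) with a mean for each group, 4 residual degrees of freedom and Benjamini-Hochberg adjustment over 14953 genes. The threshold was 0.05. An exact permutation test of 2 arrays against 2 cannot go below 0.333 and was not used. The fit was tested on simulated data. Many comparisons share arrays, so no correlation between them and no overlap of called genes was computed. Genes whose arrays did not overlap in opposite directions were counted across the 7 h and 25 h treatment comparisons, which share no arrays.

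All listed members are named, and values on the arrays compared are given for those with the 4 largest moderated t in a comparison. Genes outside the list are among the 3 with the largest moderated t of each further list in a comparison. Members and lists were chosen with earlier results of these data known. Alternatives were no filter and a stricter filter at the 50th percentile, quantile normalization, median centring, the mean of a gene's probes, array weights, a variance trend with robust estimation, a fit of the compared groups only, a replicate block, and each array left out. The second probe of a gene, counts at an unadjusted p, and array overlaps and group positions without 1 array were added after seeing the data. Same-numbered arrays deviated together at r = 0.19 to 0.40 across genes among both mepenzolate groups and vehicle lungs at 7 h. With vehicle lungs at 25 h r was -0.02 to 0.03. The labels state no pairing, so the numbers were used only in the replicate block. Promoters came from the RefSeq table of GRCm38.p6.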

Additional observations from a re-analysis of the deposited data

Results flagged for a closer look

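For 5 of the 37 genes (13.5%) every mepenzolate array lay above every vehicle array at 7 h and below every vehicle array at 25 h. Among all genes tested, 3.52% had no overlap at both times in opposite directions, counted in either order. None of the 5 genes passed limma's test of the difference between the times. That fit uses the array values by which the 5 genes were picked, so their unadjusted p-values are no independent support. For Mki67, the proliferation mark, the effect of mepenzolate was -0.14 at 25 h and 0.35 at 7 h, a difference of -0.49 (limma, unadjusted p = 0.00576, adjusted p = 1). For Cdc6, the origin licensing factor, it was -0.37 at 25 h and 0.17 at 7 h, a difference of -0.54 (limma, unadjusted p = 0.0387). For Foxm1, the mitotic transcription factor, it was -0.16 at 25 h and 0.11 at 7 h, a difference of -0.28 (limma, unadjusted p = 0.0491). For Mcm5, the helicase subunit, it was -0.10 at 25 h and 0.11 at 7 h, a difference of -0.22 (limma, unadjusted p = 0.0986). Cenpf, a kinetochore protein under the filter on level, had -0.09 at 25 h and 0.26 at 7 h, a difference of -0.35 (limma, unadjusted p = 0.063). Without the second mepenzolate array at 7 h, which stood apart, the difference was -0.55 for Mki67, -0.62 for Cdc6 and -0.26 for Foxm1. It was -0.21 for Mcm5 and -0.34 for Cenpf. Then 11 of the 37 genes had no overlap in opposite directions, counted in either order, against 8.02% of all genes tested.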

How the results depend on the processing

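With array weights 1 member, Mki67, passed in the vehicle time course (0.55), where 0 did otherwise. Under the stricter filter, which left 12 members, the S phase median of that time course was 0.067, and 5 members reached an unadjusted p under 0.05, with 1 in each of the 7 h, 25 h and difference-of-effect comparisons. At 7 h that count was 1 in place of 2 with array weights, trend and robust estimation, quantile normalization, median centring or a replicate block. At 25 h it was 1 with trend and robust estimation, quantile normalization or only the compared groups, and for the difference of effects 1 with array weights. The replicate block changed no other call. The dimmer probes turned Pcna (-0.14) and Top2a (-0.19) below 0 in the vehicle time course, Top2a above 0 at 25 h (0.25), and Pcna (0.24) and Top2a (0.20) above 0 for the difference of effects. With the mean of a gene's probes Top2a was at 0.12 in the vehicle time course, in place of 0.43. That Top2a value averages both probes, of which the dimmer lay between 2.71 and 3.17. The stricter filter left fewer members to count. Causes of the other changes were not tested.

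With 1 array left out, 0 members passed in any comparison, and a lone array is then assumed to vary like the others. Members at an unadjusted p under 0.05 numbered 4 to 18 in the vehicle time course, 0 to 2 in the mepenzolate time course, 1 to 8 for the difference of effects, 0 to 7 at 25 h and 0 to 4 at 7 h. Mitosis medians ran from 0.23 to 0.41, 0.011 to 0.15, -0.33 to -0.16, -0.19 to -0.025 and 0.058 to 0.22 in that order. S phase medians ran from 0.068 to 0.15, -0.027 to 0.066, -0.17 to -0.067, -0.10 to -0.030 and -0.035 to 0.10. With 2 arrays per group, differences of this size could not be told from the spread after adjustment over all genes.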
